A study of Mus musculus with 15 samples.

Results

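The major histocompatibility complex (MHC) and antigen processing genes were followed across 5 conditions of mouse small intestinal organoids. Members were the gene rows whose symbol began with H2- and a capital letter, without names holding -ps, together with B2m, Tap1, Tap2, Tapbp, Psmb8, Psmb9, Psmb10, Nlrc5, Ciita, Cd74, Erap1, Calr and Pdia3. This gave 59 of 78298 genes. Class I and its processing held 45 of them, 34 being heavy chains by name, and class II held 14. Entries annotated as pseudogenes or as non-coding RNA are among these. After the filter on low counts 36 members could be tested, 30 of class I and 6 of class II, and 11 members had no count in any library.

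Class I molecules present peptides from inside the cell: the immunoproteasome cuts the peptides, the TAP transporter carries them into the endoplasmic reticulum, and the peptide-loading complex places them on a heavy chain paired with B2m. Besides the classical heavy chains H2-K1 and H2-D1, the mouse carries many non-classical chains in the Q, T and M clusters, several of which are read by natural killer cells or by intraepithelial and gamma delta T cells. Class II molecules display peptides from endosomes with the help of the invariant chain Cd74 and the H2-DM exchange factor, and intestinal epithelial cells can make them under interferon gamma. NLRC5 and CIITA are the transactivators of the class I and class II genes.

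The organoids came from the small intestine of adult female mice kept on a C57BL/6J background, were transduced with lentivirus and grown in Matrigel. Every line carried a transgene under the weak ubiquitous L30 promoter, followed by a puromycin resistance gene. The control expressed the HaloTag with a nuclear localization signal (Halo-NLS, L30prom_V5-Halo-GDGAGLIN-NLS_IRES_Puro), and the other lines expressed SOX9 fused to the HaloTag (L30prom_Sox9-GDGAGLIN-Halo-V5_IRES_Puro) or to mEGFP (L30prom_Sox9-GDGAGLIN-mEGFP-V5_IRES_Puro). Both SOX9 lines were sampled while budding and, after longer culture, as round spheroids (SOX9-Halo_budding and SOX9-Halo_spheroid, SOX9-mEGFP_budding and SOX9-mEGFP_spheroid), with 3 libraries in each of the 5 conditions. The spheroid lines had in addition a histone H2B transgene, L30prom_H2B-GDGAGLIN-mScarletI-V5_IRES_Neo with SOX9-mEGFP and L30prom_H2B-GDGAGLIN-mEGFP-V5_IRES_Zeo with SOX9-Halo, so morphology, time in culture and this transgene cannot be told apart. Each condition was 1 stable line. Its 3 libraries were biological replicates per the study's methods, taken from that line within a few passages, so p-values measure the spread within a line and not between lines or animals. All pairs of libraries of a condition differed beyond counting noise (chi-square per gene 20.5 to 224.6). The study ordered the conditions by spheroid progression and time in culture, with SOX9-mEGFP_spheroid before SOX9-Halo_spheroid. Between the lines, tag, H2B transgene, time in culture and progression therefore cannot be told apart. The comparisons ask how these genes differed between SOX9 lines and the control, between spheroids and budding organoids, and between both tagged lines.

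Between 28062722 and 40559766 counts per library fell on genes (median 33491297). Halo-NLS replicate 3 was the broadest library, with 40375 genes detected against 24214 to 34646 in the others. Among the Halo-NLS counts it held 8 of 11 for H2-DMb1 and 5 of 6 for Nlrc5. For H2-T10 and H2-T9 it held 4 of 22 and 3 of 33. The part of this breadth in the low control levels was not tested. Levels are given as normalized counts, scaled with the trimmed mean of M values (TMM) to the mean library size, and differences as log2 fold changes ± standard error (SE) with n = 3 in each condition. A gene was called at a Benjamini-Hochberg adjusted p of at most 0.01 in edgeR's quasi-likelihood test, a change of at least 2-fold and, over all libraries, at least 10 normalized counts on average, and "rose" and "fell" are used of called genes. Sox9 was at 305 to 769 in Halo-NLS and at 1336 to 23654 in the SOX9 libraries, with SOX9-Halo_budding replicate 1 the lowest of these. Libraries of a condition differed by over 2-fold in 4.42% to 29.2% of the genes with a mean of at least 10, and the highest share was between Halo-NLS replicates 1 and 3. The epithelial cadherin gene Cdh1 was at 17110 to 36610 in all libraries. Epcam was at 14770 to 16220 in SOX9-Halo_spheroid and at 30010 to 42560 elsewhere, and the enterocyte gene Vil1 at 3244 to 4635 and at 21660 to 58790. In bulk RNA, fewer cells of a type and less RNA per cell cannot be told apart.

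To show what the members share beyond their names, the sequences before the annotated starts of 6 of them are printed, from RefSeq (GRCm38.p6). These are the classical chains H2-K1 and H2-D1, B2m and Tap1 of the common class I pathway, and H2-Q10 and H2-T3, non-classical chains that fell from budding to spheroid in both lines. Each line gives the 250 bases before the start, 5′ to 3′ on the gene's strand, and for H2-K1, which has 2 annotated starts, those before the more upstream one. Capitals mark matches on either strand to GAAANNGAA (part of an interferon-stimulated response element), TTCNNNGAA (gamma-activated site), CCAAT (Y box), TGACG (part of an X2 box) or GGGATTCC (kappa B core), of which GAAANNGAA and TTCNNNGAA can overlap.
H2-K1 (chr17:34000348-34000597, minus strand): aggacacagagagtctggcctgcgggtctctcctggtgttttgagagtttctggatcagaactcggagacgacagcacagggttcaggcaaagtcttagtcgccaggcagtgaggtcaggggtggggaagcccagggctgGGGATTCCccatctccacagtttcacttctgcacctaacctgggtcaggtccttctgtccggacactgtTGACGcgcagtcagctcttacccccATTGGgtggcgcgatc
H2-D1 (chr17:35262844-35263093, plus strand): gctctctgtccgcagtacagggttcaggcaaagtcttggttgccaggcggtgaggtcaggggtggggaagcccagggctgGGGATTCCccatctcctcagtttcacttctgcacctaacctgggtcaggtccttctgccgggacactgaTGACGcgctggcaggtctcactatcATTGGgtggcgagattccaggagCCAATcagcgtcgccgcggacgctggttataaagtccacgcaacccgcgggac
B2m (chr2:122147437-122147686, plus strand): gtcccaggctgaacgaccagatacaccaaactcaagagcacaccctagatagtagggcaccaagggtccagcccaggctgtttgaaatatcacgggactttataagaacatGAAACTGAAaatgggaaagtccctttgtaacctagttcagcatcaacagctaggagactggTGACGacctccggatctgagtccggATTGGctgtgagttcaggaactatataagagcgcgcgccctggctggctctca
Tap1 (chr17:34187306-34187555, plus strand): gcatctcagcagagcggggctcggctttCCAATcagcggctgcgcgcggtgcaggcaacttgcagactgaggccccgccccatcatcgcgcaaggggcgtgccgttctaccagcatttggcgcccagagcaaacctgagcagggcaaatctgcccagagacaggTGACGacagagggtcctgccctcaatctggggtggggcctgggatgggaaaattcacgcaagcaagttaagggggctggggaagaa
H2-Q10 (chr17:35469839-35470088, plus strand): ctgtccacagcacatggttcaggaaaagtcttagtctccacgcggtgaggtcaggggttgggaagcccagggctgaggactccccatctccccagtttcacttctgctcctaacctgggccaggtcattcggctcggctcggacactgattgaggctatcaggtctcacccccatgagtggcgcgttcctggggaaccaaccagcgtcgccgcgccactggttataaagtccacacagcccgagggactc
H2-T3 (chr17:36190152-36190401, minus strand): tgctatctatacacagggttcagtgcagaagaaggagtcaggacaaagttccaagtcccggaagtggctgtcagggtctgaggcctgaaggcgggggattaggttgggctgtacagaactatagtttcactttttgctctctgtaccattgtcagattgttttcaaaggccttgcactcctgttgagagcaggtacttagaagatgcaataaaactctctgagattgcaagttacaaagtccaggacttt

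Of the 36 tested members, 23 had a promoter in this table. Over the 300 bases searched, 250 before and 50 after the start, H2-K1 and H2-D1 both held GGGATTCC, TGACG and CCAAT, and B2m held GAAANNGAA, TGACG and CCAAT. Tap1 held TGACG and CCAAT, whereas H2-Q10 and H2-T3 held none of the 5 motifs. Of all 32851 promoters of this length, 1.06% held GGGATTCC, 20.8% TGACG, 37.4% CCAAT, 8.56% GAAANNGAA and 8.30% TTCNNNGAA. H2-Q7, a Q cluster chain that fell as well, held the same 3 motifs as H2-K1, and Psmb10 held none. These matches describe the letters in the window and say nothing of binding. Variants of the 5 motifs were not searched, so a promoter without a match can still hold a related element. The unmarked stretch agtttcactt, for example, stands in the printed lines of H2-K1, H2-D1, H2-Q10 and H2-T3.

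Most members that were called in the spheroids were lower there, and most of these were heavy chains. In SOX9-Halo_spheroid against SOX9-Halo_budding, 5 of the 36 tested members rose and 17 fell, where 10.5% and 14.7% of all 17560 tested genes did. In SOX9-mEGFP_spheroid against SOX9-mEGFP_budding, 5 members rose and 10 fell, where 8.55% and 7.88% of all genes did. Against Halo-NLS, 6 members rose and 15 fell in SOX9-Halo_spheroid (13.6% and 15.3% of all genes), and 4 rose and 12 fell in SOX9-mEGFP_spheroid (15.3% and 12.1%). With library sizes alone in place of TMM, which moved the median of all genes from -0.01 to 0.28 and from 0.03 to 0.29, these counts were 7 and 13, and 5 and 9. All genes then split into 3102 higher and 2229 lower in SOX9-Halo_spheroid, against 2392 and 2682 with TMM, and into 3333 and 1500 in SOX9-mEGFP_spheroid, against 2690 and 2133. Of the 19 tested heavy chains, 12 fell in the SOX9-Halo line (median log2 fold change -5.08, or -3.65 with chains without a count set to their bound, beside -0.08 over all genes), and 2 rose and 7 fell in the SOX9-mEGFP line (median -0.94, beside -0.04). Without SOX9-Halo_budding replicate 1, whose Sox9 count was low, 5 members rose and 16 fell in the SOX9-Halo line. The 7 epithelial marker genes summed to 113800 to 120000 normalized counts in SOX9-Halo_spheroid and to 216100 to 386100 elsewhere. Within this list Lgals4 was at 956.1 to 3035 there and at 55660 to 144000 elsewhere, whereas Krt8 (64400 to 71180) overlapped SOX9-Halo_budding (49460 to 69240) and Cdh1 (27840 to 30340) was above Halo-NLS (17110 to 27490). The part of these markers in the counts was not tested. The low-count filter keeps a gene that is high in 1 condition only, so the counts describe the tested members and not all 59. The comparisons with Halo-NLS share its 3 libraries.

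**Figure D1:**
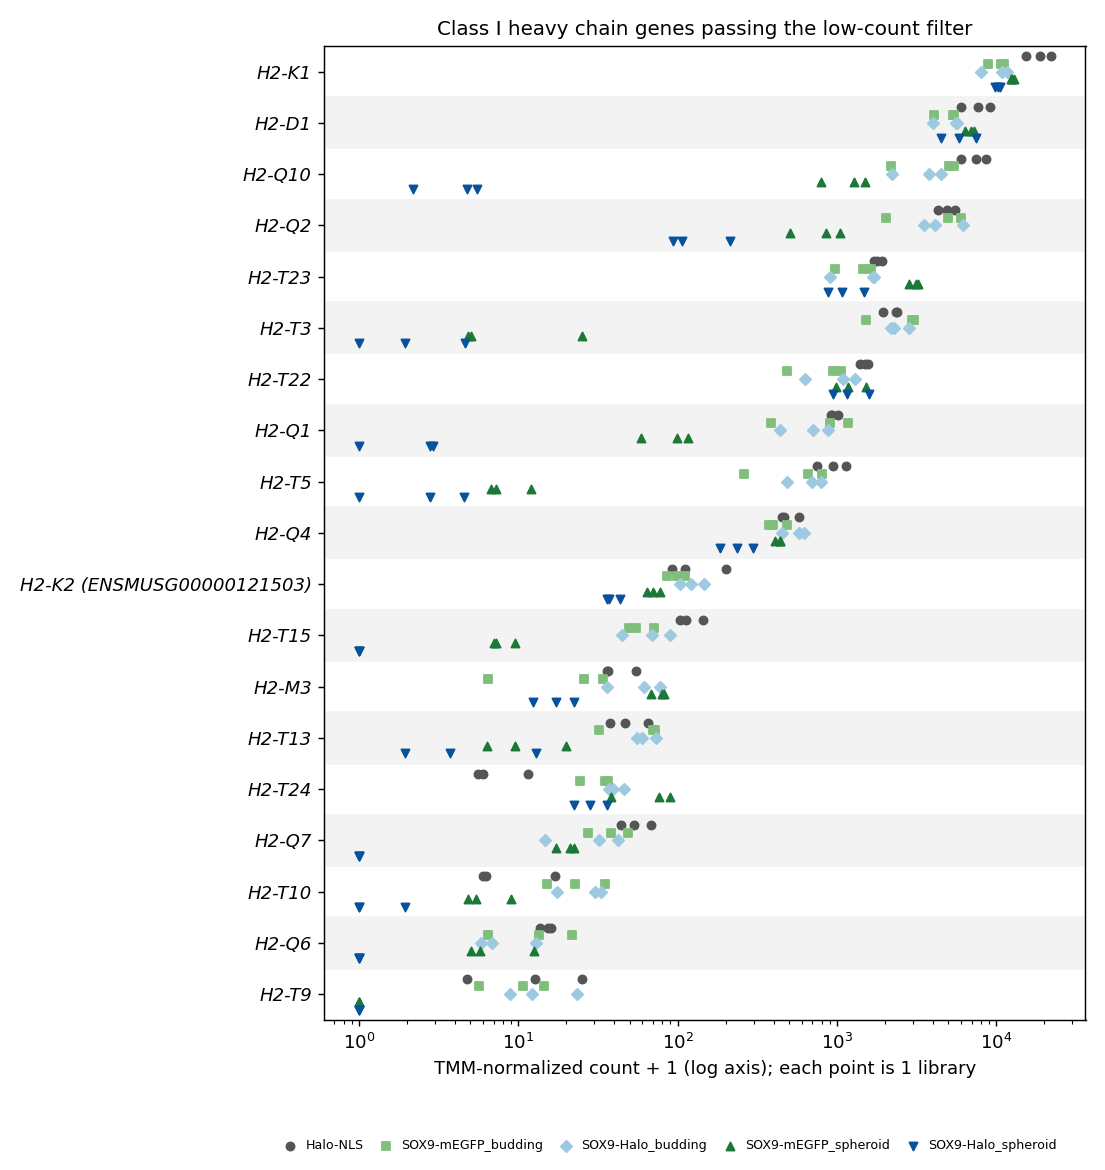
TMM-normalized counts plus 1 (log axis) of the 19 heavy chain genes that passed the low-count filter, with 1 point for each library and a colour and marker for each condition. H2-K1 and H2-D1 stay between 3971 and 21961 in every library, whereas H2-Q10, H2-T3, H2-Q1 and H2-T5 drop below 10 in SOX9-Halo_spheroid.

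The classical chains stayed abundant. Normalized counts of H2-K1 were 15422, 18791 and 21961 in Halo-NLS, 11221, 10710 and 8866 in SOX9-mEGFP_budding, 10809, 11673 and 7998 in SOX9-Halo_budding, 12439, 12292 and 12924 in SOX9-mEGFP_spheroid and 10591, 9771 and 10281 in SOX9-Halo_spheroid. The 3 Halo-NLS libraries were above all others, but the change stayed under 2-fold, at -0.87 ± 0.19 (adjusted p = 0.00122) in SOX9-Halo_spheroid and -0.58 ± 0.18 (adjusted p = 0.0179) in SOX9-mEGFP_spheroid. From budding to spheroid the change was 0.01 ± 0.18 (adjusted p = 0.98) in the SOX9-Halo line and 0.29 ± 0.18 (adjusted p = 0.288) in the SOX9-mEGFP line. Normalized counts of H2-D1 were 5958, 7669 and 9049 in Halo-NLS, 5375, 5365 and 4037 in SOX9-mEGFP_budding, 5563, 5612 and 3971 in SOX9-Halo_budding, 6885, 6319 and 7181 in SOX9-mEGFP_spheroid and 4496, 5834 and 7481 in SOX9-Halo_spheroid. The spheroid libraries of both lines overlapped the Halo-NLS range for H2-D1 and the change was -0.35 ± 0.22 (adjusted p = 0.215) and -0.15 ± 0.22 (adjusted p = 0.585). Normalized counts of B2m were 16006, 11011 and 9328 in Halo-NLS, 16813, 12791 and 7354 in SOX9-mEGFP_budding, 9338, 9929 and 8911 in SOX9-Halo_budding, 6600, 6103 and 6998 in SOX9-mEGFP_spheroid and 6294, 5599 and 9636 in SOX9-Halo_spheroid. B2m, the light chain that every class I heavy chain needs at the cell surface, was lower than in budding organoids in all 3 SOX9-mEGFP_spheroid libraries without passing the test (-0.91 ± 0.29, adjusted p = 0.027), and SOX9-Halo_spheroid overlapped SOX9-Halo_budding (-0.39 ± 0.29, adjusted p = 0.308). H2-K1, H2-D1 and B2m were called in none of the comparisons.

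Of 6 tested chains of the Q cluster, 5 fell from budding to spheroid in the SOX9-Halo line and 3 in the SOX9-mEGFP line. Among all tested genes, 14.7% fell in the SOX9-Halo line and 7.88% in the SOX9-mEGFP line. H2-Q10 encodes a secreted class I molecule best known from the liver. Normalized counts of H2-Q10 were 7477, 8657 and 5962 in Halo-NLS, 5451, 5070.5 and 2168 in SOX9-mEGFP_budding, 3761, 4510 and 2209 in SOX9-Halo_budding, 1492, 1282 and 791 in SOX9-mEGFP_spheroid and 1.18, 3.78 and 4.501 in SOX9-Halo_spheroid. It fell in both lines from budding to spheroid, with a log2 change of -1.83 ± 0.36 (adjusted p = 0.00129) in the SOX9-mEGFP line and with a log2 change of -10.00 ± 0.57 (adjusted p = 6.73e-09) in the SOX9-Halo line, where 10 counts were left in 3 libraries. Normalized counts of H2-Q2 were 5472, 4917 and 4324 in Halo-NLS, 5949, 4999 and 2028 in SOX9-mEGFP_budding, 6131, 4141 and 3501 in SOX9-Halo_budding, 1038, 854 and 502 in SOX9-mEGFP_spheroid and 211, 105 and 91.8 in SOX9-Halo_spheroid. H2-Q2, a further non-classical chain, fell with -2.44 ± 0.41 (adjusted p = 0.000365) and -5.08 ± 0.47 (adjusted p = 5.41e-07), and unlike H2-Q10 it kept counts in the 91.8 to 210.8 range in SOX9-Halo_spheroid. Normalized counts of H2-Q1 were 924, 1013 and 910.1 in Halo-NLS, 1172, 901 and 382 in SOX9-mEGFP_budding, 874, 706 and 435 in SOX9-Halo_budding, 114, 98.1 and 58.1 in SOX9-mEGFP_spheroid and 0, 1.89 and 1.80 in SOX9-Halo_spheroid. The fall of H2-Q1 was -3.18 ± 0.42 (adjusted p = 4.59e-05) in the SOX9-mEGFP line, and 4 counts in SOX9-Halo_spheroid put it 517-fold (95% counting interval 202 to 1898) below SOX9-Halo_budding. Such counting intervals cover counting error only. Normalized counts of H2-Q7 were 52.3, 66.6 and 42.7 in Halo-NLS, 47.4, 37.4 and 26.5 in SOX9-mEGFP_budding, 31.0, 40.9 and 13.7 in SOX9-Halo_budding, 21.3, 20.03 and 16.2 in SOX9-mEGFP_spheroid and 0 in each library of SOX9-Halo_spheroid. H2-Q7, which encodes the Qa-2 antigen, had no count in SOX9-Halo_spheroid and was at least 28.8-fold lower than in SOX9-Halo_budding, against a floor of 3 counts over the 3 libraries. In the SOX9-mEGFP line its change of -0.94 ± 0.40 (adjusted p = 0.107) was not called. Against Halo-NLS it was called at -1.49 ± 0.40 (adjusted p = 0.00822), a call lost with library sizes alone, with no low-count filter, without Halo-NLS replicate 1, 2 or 3, without SOX9-mEGFP_budding replicate 1 or 2, without SOX9-Halo_budding replicate 1 or without SOX9-mEGFP_spheroid replicate 1, 2 or 3 (log2 fold change -1.63 to -1.22, highest adjusted p 0.034).

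H2-Q4 and H2-Q6 are further chains of this cluster. Normalized counts of H2-Q4 were 452, 578 and 461 in Halo-NLS, 487, 398 and 375 in SOX9-mEGFP_budding, 621, 574 and 449 in SOX9-Halo_budding, 440.2, 406 and 437 in SOX9-mEGFP_spheroid and 182, 235 and 293 in SOX9-Halo_spheroid. It fell from budding to spheroid in the SOX9-Halo line with a log2 change of -1.21 ± 0.23 (adjusted p = 0.000478), while in the SOX9-mEGFP line the groups overlapped (0.03 ± 0.22, adjusted p = 0.954). Its fall against Halo-NLS, -1.07 ± 0.23 (adjusted p = 0.00118), was lost with library sizes alone, with no low-count filter, with only the libraries compared, without Halo-NLS replicate 2 or without SOX9-Halo_spheroid replicate 1 (log2 fold change -1.10 to -0.77, highest adjusted p 0.0163). H2-Q6 stayed at 4.01 to 20.7 in the other conditions and had no count in SOX9-Halo_spheroid, at least 7.89-fold below SOX9-Halo_budding, but its mean normalized count was under 10.

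In the T cluster, H2-T3 and H2-T5 were near 0 in the spheroids of both lines. Normalized counts of H2-T3 were 2345, 2362 and 1937 in Halo-NLS, 3037, 2958 and 1522 in SOX9-mEGFP_budding, 2826, 2279 and 2165 in SOX9-Halo_budding, 24.0, 4.01 and 3.81 in SOX9-mEGFP_spheroid and 0, 0.946 and 3.60 in SOX9-Halo_spheroid. H2-T3 encodes the thymus leukemia antigen, a non-classical chain that intestinal epithelium displays and that binds CD8 alpha homodimers on intraepithelial lymphocytes. All spheroid libraries were at or below 23.96, and every other library was above 1521. H2-T3 fell with a log2 change of -7.84 ± 0.61 (adjusted p = 3.39e-07) in the SOX9-mEGFP line, and the 5 counts of SOX9-Halo_spheroid put it 1477-fold (95% counting interval 633 to 4549) below SOX9-Halo_budding. Normalized counts of H2-T5 were 744, 1139.5 and 935 in Halo-NLS, 807, 656 and 258 in SOX9-mEGFP_budding, 786, 697 and 483 in SOX9-Halo_budding, 6.21, 11.0 and 5.71 in SOX9-mEGFP_spheroid and 3.55, 0 and 1.80 in SOX9-Halo_spheroid. H2-T5, the next gene of the cluster, fell with a log2 change of -6.21 ± 0.54 (adjusted p = 9.04e-07), and by 400.3-fold (95% counting interval 171 to 1234) in the SOX9-Halo line. Both genes overlap the gene model Gm20478, and reads on more than 1 gene were not counted.

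H2-T15 and H2-T13 fell in both lines and H2-T10 in the SOX9-Halo line. Normalized counts of H2-T15 were 102, 111 and 143 in Halo-NLS, 53.5, 69.6 and 48.3 in SOX9-mEGFP_budding, 88.3, 68.1 and 43.9 in SOX9-Halo_budding, 6.21, 6.01 and 8.57 in SOX9-mEGFP_spheroid and 0 in each library of SOX9-Halo_spheroid. H2-T15 fell with a log2 change of -3.02 ± 0.36 (adjusted p = 4e-05) in the SOX9-mEGFP line and was without a count in SOX9-Halo_spheroid, at least 68.6-fold below SOX9-Halo_budding. Normalized counts of H2-T13 were 45.7, 64.3 and 36.5 in Halo-NLS, 70.5, 68.5 and 31.1 in SOX9-mEGFP_budding, 72.4, 54.5 and 58.5 in SOX9-Halo_budding, 5.32, 19.0 and 8.57 in SOX9-mEGFP_spheroid and 11.8, 0.946 and 2.70 in SOX9-Halo_spheroid. H2-T13 fell with a log2 change of -3.65 ± 0.63 (adjusted p = 0.000242) and -2.36 ± 0.57 (adjusted p = 0.00509). Its call in the SOX9-mEGFP line was lost without SOX9-mEGFP_budding replicate 1 or 2 or without SOX9-mEGFP_spheroid replicate 1 or 3 (log2 fold change -2.24 to -2.05, highest adjusted p 0.0284), and against Halo-NLS (-2.16 ± 0.57, adjusted p = 0.00609) with library sizes alone, without Halo-NLS replicate 2 or without SOX9-mEGFP_spheroid replicate 1 or 3 (log2 fold change -2.03 to -1.83, highest adjusted p 0.0312). Normalized counts of H2-T10 were 5.23, 16.1 and 5.03 in Halo-NLS, 34.01, 21.8 and 14.0 in SOX9-mEGFP_budding, 29.4, 32.1 and 16.6 in SOX9-Halo_budding, 4.44, 8.01 and 3.81 in SOX9-mEGFP_spheroid and 0, 0.946 and 0 in SOX9-Halo_spheroid. H2-T10, a ligand of some gamma delta T cells, had 1 count in SOX9-Halo_spheroid, 79.2-fold (95% counting interval 13.8 to 3163) below SOX9-Halo_budding, whereas -2.07 ± 0.56 (adjusted p = 0.011) in the SOX9-mEGFP line was not called. Its fall in SOX9-Halo_spheroid against Halo-NLS, 27.2-fold (95% counting interval 4.40 to 1124), was lost without Halo-NLS replicate 2 (log2 fold change -3.52, highest adjusted p 0.0119). H2-T9 was at 3.77 to 24.1 outside the spheroids and had no count in any spheroid library, and its mean was under 10. By sequence, 24.7% of the 150-base windows of H2-T9 and 14.2% of those of H2-T15 occurred in another transcript, mostly in each other, and the gene spans of H2-T9 and H2-T10 overlap, so their counts are uncertain. For the other tested H2 members apart from H2-K2 (14.6%), 5.21% of the windows or fewer were shared.

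Not every non-classical chain fell. Normalized counts of H2-T23 were 1708, 1778 and 1916 in Halo-NLS, 1632, 1453 and 969 in SOX9-mEGFP_budding, 1674, 1711 and 897 in SOX9-Halo_budding, 3233, 3135 and 2841 in SOX9-mEGFP_spheroid and 1474, 1075 and 881 in SOX9-Halo_spheroid. H2-T23, which encodes Qa-1, a ligand of the CD94 and NKG2 receptors of natural killer cells, rose from budding to spheroid in the SOX9-mEGFP line with a log2 change of 1.18 ± 0.27 (adjusted p = 0.00343). That call was lost without SOX9-mEGFP_budding replicate 2 or 3 or without SOX9-mEGFP_spheroid replicate 1 or 2 (log2 fold change 0.94 to 1.21, highest adjusted p 0.0274). In the SOX9-Halo line the change was -0.32 ± 0.27 (adjusted p = 0.367), and SOX9-Halo_spheroid was lower than SOX9-mEGFP_spheroid with a log2 change of -1.43 ± 0.27 (adjusted p = 0.00108). H2-T22, a gamma delta T cell ligand next to it, stayed at 483 to 1579 in all libraries and was called in no comparison. Normalized counts of H2-T24 were 10.5, 4.59 and 5.03 in Halo-NLS, 34.01, 35.3 and 23.4 in SOX9-mEGFP_budding, 38.2, 36.0 and 44.9 in SOX9-Halo_budding, 37.3, 75.1 and 88.6 in SOX9-mEGFP_spheroid and 21.3, 35 and 27.0 in SOX9-Halo_spheroid. H2-T24 was the member that rose in all 4 SOX9 conditions against Halo-NLS, with 2.19 ± 0.44 (adjusted p = 0.0067) in SOX9-mEGFP_budding, 2.56 ± 0.43 (adjusted p = 0.00233) in SOX9-Halo_budding, 3.31 ± 0.43 (adjusted p = 2.18e-05) in SOX9-mEGFP_spheroid and 2.05 ± 0.44 (adjusted p = 0.00126) in SOX9-Halo_spheroid. No SOX9 library reached down to the Halo-NLS range. The call in SOX9-mEGFP_budding was lost with only the libraries compared, without Halo-NLS replicate 2 or 3, without SOX9-mEGFP_budding replicate 1 or 2, without SOX9-Halo_budding replicate 1, without SOX9-mEGFP_spheroid replicate 2 or without SOX9-Halo_spheroid replicate 3 (log2 fold change 1.98 to 2.21, highest adjusted p 0.0456), and the call in SOX9-Halo_budding with only the libraries compared, without Halo-NLS replicate 2 or 3 or without SOX9-Halo_budding replicate 3 (log2 fold change 2.35 to 2.56, highest adjusted p 0.0399). H2-T22, H2-T23 and H2-T24 overlap the gene model A930015D03Rik.

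H2-M3 moved in opposite directions in both lines. Normalized counts of H2-M3 were 35.3, 53.9 and 35.2 in Halo-NLS, 32.8, 24.9 and 5.45 in SOX9-mEGFP_budding, 60.5, 75.9 and 35.1 in SOX9-Halo_budding, 80.8, 78.1 and 66.7 in SOX9-mEGFP_spheroid and 21.3, 11.4 and 16.2 in SOX9-Halo_spheroid. H2-M3, which presents N-formylated peptides such as those of bacteria, rose with a log2 change of 1.87 ± 0.48 (adjusted p = 0.00786) in the SOX9-mEGFP line and fell with a log2 change of -1.82 ± 0.49 (adjusted p = 0.00723) in the SOX9-Halo line. The rise was lost with only the libraries compared, without SOX9-mEGFP_budding replicate 2 or 3, without SOX9-Halo_budding replicate 1, without SOX9-mEGFP_spheroid replicate 1, 2 or 3 or without SOX9-Halo_spheroid replicate 2 or 3 (log2 fold change 1.33 to 2.01, highest adjusted p 0.0269), and the fall without SOX9-Halo_budding replicate 1 or 2 or without SOX9-Halo_spheroid replicate 1, 2 or 3 (log2 fold change -2.04 to -1.56, highest adjusted p 0.0356). SOX9-mEGFP_budding replicate 3 was far below the other libraries of its condition. Normalized counts of H2-K2 were 109.8, 199.7 and 90.5 in Halo-NLS, 109, 97.6 and 84.1 in SOX9-mEGFP_budding, 145, 121 and 102 in SOX9-Halo_budding, 76.3, 63.1 and 68.6 in SOX9-mEGFP_spheroid and 42.6, 35.9 and 35.1 in SOX9-Halo_spheroid. H2-K2, whose counted entry is annotated as a long non-coding RNA, fell in SOX9-Halo_spheroid with a log2 change of -1.69 ± 0.30 (adjusted p = 0.000307) against SOX9-Halo_budding and -1.82 ± 0.30 (adjusted p = 0.000162) against Halo-NLS.

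**Figure D2:**
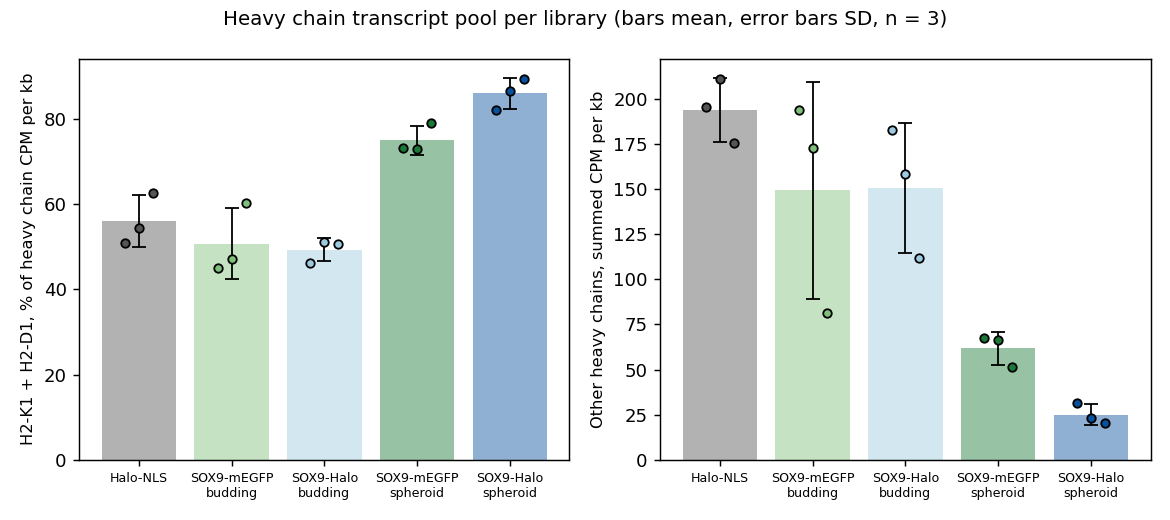
Left, share of H2-K1 and H2-D1 in the summed heavy chain level per library (% of CPM per kilobase of exon); right, summed level of all other heavy chains. Bars are means, error bars SD, points libraries (n = 3). The share is 49.3% to 56.1% in the non-spheroid conditions and 75.0% and 86.0% in the spheroids.

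Levels were put on a scale per gene length, CPM per kilobase of exon, where CPM are counts relative to the TMM-scaled library size. On this scale H2-K1 and H2-D1 made up 56.1% ± 6.0 (SD, n = 3) of the summed heavy chain level in Halo-NLS, 50.8% ± 8.3 in SOX9-mEGFP_budding and 49.3% ± 2.7 in SOX9-Halo_budding. They made up 75.0% ± 3.4 in SOX9-mEGFP_spheroid and 86.0% ± 3.7 in SOX9-Halo_spheroid. In each line all spheroid libraries were above all budding libraries. The difference was 24.3 percentage points in the SOX9-mEGFP line and 36.7 in the SOX9-Halo line, each with p = 0.1 in a two-sided exact permutation test, the smallest p that 3 against 3 libraries allow. The summed level of the other heavy chains averaged 194.1 CPM per kilobase in Halo-NLS. It averaged 149.4 in SOX9-mEGFP_budding and 61.7 in SOX9-mEGFP_spheroid, and 150.8 in SOX9-Halo_budding and 25.0 in SOX9-Halo_spheroid. SOX9-mEGFP_budding replicate 3, at 81.1, was the lowest of the budding libraries and still above every spheroid library.

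**Figure D3:**
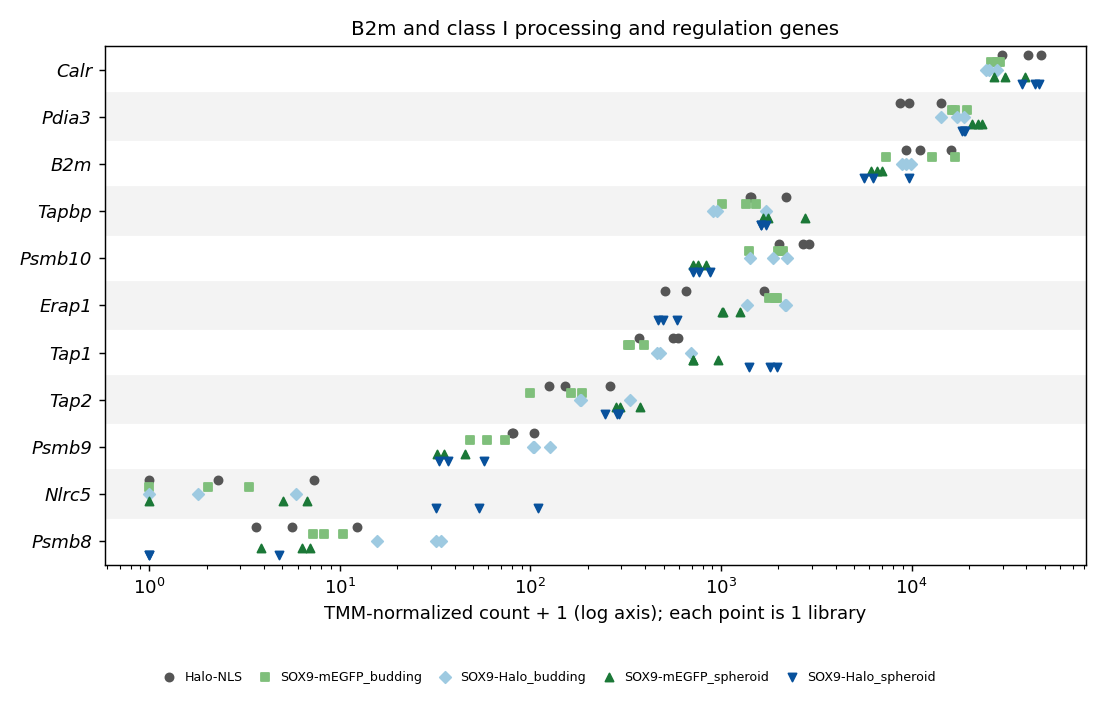
TMM-normalized counts plus 1 (log axis) of B2m and the 10 class I processing and regulation genes, with 1 point for each library and a colour and marker for each condition. Tap1 and Nlrc5 lie highest in SOX9-Halo_spheroid, and Psmb10 lies lower in all 6 spheroid libraries than in the other 9.

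Class I processing genes moved in both directions. Their median log2 fold change in SOX9-Halo_spheroid against Halo-NLS was 0.05 over 10 tested genes, beside -4.31 over 19 heavy chains (-3.77 with chains without a count set to their bound) and -0.01 over all genes. Normalized counts of Tap1 were 369.9, 561 and 596 in Halo-NLS, 330.4, 391 and 322 in SOX9-mEGFP_budding, 458, 695 and 478 in SOX9-Halo_budding, 714, 708 and 958 in SOX9-mEGFP_spheroid and 1408, 1796 and 1954 in SOX9-Halo_spheroid. Tap1, a subunit of the peptide transporter, rose from budding to spheroid with a log2 change of 1.66 ± 0.25 (adjusted p = 6.01e-05) in the SOX9-Halo line and 1.19 ± 0.24 (adjusted p = 0.00172) in the SOX9-mEGFP line. It was higher in SOX9-Halo_spheroid than in SOX9-mEGFP_spheroid with a log2 change of 1.12 ± 0.24 (adjusted p = 0.00313). The call in the SOX9-mEGFP line was lost without SOX9-mEGFP_budding replicate 1 or 3 or without SOX9-mEGFP_spheroid replicate 3 (log2 fold change 1.00 to 1.15, highest adjusted p 0.0139), and that between the spheroids without SOX9-mEGFP_spheroid replicate 1 or 2 or without SOX9-Halo_spheroid replicate 2 or 3 (log2 fold change 1.00 to 1.08, highest adjusted p 0.0223). Normalized counts of Tap2 were 124, 262 and 151 in Halo-NLS, 185, 163 and 98.1 in SOX9-mEGFP_budding, 181, 333 and 183 in SOX9-Halo_budding, 294, 281 and 374 in SOX9-mEGFP_spheroid and 246, 282 and 292 in SOX9-Halo_spheroid. Tap2, the other subunit, was called in no comparison and was 1.09 ± 0.33 (adjusted p = 0.0225) from budding to spheroid in the SOX9-mEGFP line. Normalized counts of Nlrc5 were 1.31, 0 and 6.29 in Halo-NLS, 0, 1.04 and 2.34 in SOX9-mEGFP_budding, 0.796, 0 and 4.88 in SOX9-Halo_budding, 0, 4.01 and 5.71 in SOX9-mEGFP_spheroid and 30.8, 53.0 and 108 in SOX9-Halo_spheroid. Nlrc5 rose in SOX9-Halo_spheroid, 37.0-fold (95% counting interval 16.7 to 102) above SOX9-Halo_budding and 27.2-fold (95% counting interval 12.3 to 75.0) above Halo-NLS. Its level spread over 30.8 to 108 in SOX9-Halo_spheroid, and without replicate 3 the call was lost both against SOX9-Halo_budding and against Halo-NLS (fitted log2 fold changes 4.36 and 3.99, adjusted p at most 0.00771), the mean normalized count being then under 10.

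Of the immunoproteasome subunits, Psmb10 fell in both lines and Psmb9 in the SOX9-Halo line. Normalized counts of Psmb10 were 2021, 2678 and 2889.8 in Halo-NLS, 1999.5, 2115 and 1394 in SOX9-mEGFP_budding, 1879.9, 2228 and 1414 in SOX9-Halo_budding, 829.8, 756 and 708 in SOX9-mEGFP_spheroid and 711, 869 and 761 in SOX9-Halo_spheroid. Psmb10 fell with a log2 change of -1.24 ± 0.22 (adjusted p = 0.000349) and -1.26 ± 0.22 (adjusted p = 0.000502) from budding to spheroid, and no spheroid library reached the range of the others. Normalized counts of Psmb9 were 79.7, 79.2 and 103 in Halo-NLS, 47.4, 72.7 and 58.4 in SOX9-mEGFP_budding, 103, 126 and 102 in SOX9-Halo_budding, 44.4, 34.05 and 31.4 in SOX9-mEGFP_spheroid and 32.0, 35.9 and 55.8 in SOX9-Halo_spheroid. Psmb9 fell in the SOX9-Halo line with a log2 change of -1.41 ± 0.28 (adjusted p = 0.000802), and its change in the SOX9-mEGFP line, -0.70 ± 0.28 (adjusted p = 0.0823), was not called. Against Halo-NLS it fell with a log2 change of -1.07 ± 0.28 (adjusted p = 0.00561) and -1.25 ± 0.28 (adjusted p = 0.0023), the former lost with library sizes alone, with no low-count filter, with only the libraries compared, without Halo-NLS replicate 2 or 3 or without SOX9-Halo_spheroid replicate 1 or 2 (log2 fold change -1.13 to -0.78, highest adjusted p 0.0682) and the latter with library sizes alone, with no low-count filter, without Halo-NLS replicate 3 or without SOX9-mEGFP_spheroid replicate 2 or 3 (log2 fold change -1.21 to -0.99, highest adjusted p 0.0233). Psmb9 and Tap1 lie on opposite strands with overlapping spans, and the counting did not use strand. Normalized counts of Psmb8 were 2.61, 4.59 and 11.3 in Halo-NLS, 7.29, 9.35 and 6.23 in SOX9-mEGFP_budding, 31.0, 33.1 and 14.6 in SOX9-Halo_budding, 5.32, 6.01 and 2.86 in SOX9-mEGFP_spheroid and 0, 3.78 and 0 in SOX9-Halo_spheroid. Psmb8 had a mean under 10 and was not called, with 4 counts in SOX9-Halo_spheroid against 88 in SOX9-Halo_budding. Psmb8 and Tap2 overlap the gene model Gm20496, and reads shared with it were not counted.

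Of the peptide-loading and trimming genes, Pdia3 and Erap1 were each called in a comparison. Normalized counts of Calr were 29664, 40958 and 47664 in Halo-NLS, 29014, 26232 and 28111 in SOX9-mEGFP_budding, 24478, 28039 and 25324 in SOX9-Halo_budding, 30938, 27122 and 39480 in SOX9-mEGFP_spheroid and 37755, 44325 and 46368 in SOX9-Halo_spheroid. Calreticulin, a chaperone of new heavy chains, changed with a log2 change of 0.72 ± 0.20 (adjusted p = 0.00872) in the SOX9-Halo line, under the 2-fold limit. Normalized counts of Pdia3 were 14294, 8735 and 9651 in Halo-NLS, 16849, 16210 and 19519 in SOX9-mEGFP_budding, 18930, 14195 and 17248 in SOX9-Halo_budding, 23427, 20650 and 22199 in SOX9-mEGFP_spheroid and 18779, 18310 and 19158 in SOX9-Halo_spheroid. Pdia3, its oxidoreductase partner, rose in SOX9-mEGFP_spheroid against Halo-NLS with a log2 change of 1.02 ± 0.20 (adjusted p = 0.000675), a change at the limit that was lost with RLE normalization, with only the libraries compared, with DESeq2, without Halo-NLS replicate 2 or 3, without SOX9-mEGFP_budding replicate 3 or without SOX9-mEGFP_spheroid replicate 1 (log2 fold change 0.89 to 0.99, highest adjusted p 0.0142). Normalized counts of Tapbp were 1434, 2187 and 1410.4 in Halo-NLS, 1532, 1357 and 1011 in SOX9-mEGFP_budding, 905, 1718 and 955 in SOX9-Halo_budding, 1655, 1758 and 2752 in SOX9-mEGFP_spheroid and 1713, 1619 and 1616 in SOX9-Halo_spheroid. Tapasin, which tethers the heavy chain to TAP, was called in no comparison. Normalized counts of Erap1 were 1672, 654 and 505 in Halo-NLS, 1963, 1913 and 1786 in SOX9-mEGFP_budding, 2186, 1369 and 2172 in SOX9-Halo_budding, 1255, 1018 and 1005 in SOX9-mEGFP_spheroid and 497, 467 and 584 in SOX9-Halo_spheroid. Erap1, the peptidase that trims peptides in the endoplasmic reticulum, fell in the SOX9-Halo line with a log2 change of -1.89 ± 0.35 (adjusted p = 0.000512) from budding to spheroid, and its change in the SOX9-mEGFP line was -0.79 ± 0.34 (adjusted p = 0.108). Halo-NLS replicate 1 was far above the other libraries of its condition for Erap1. The control range of 505 to 1672 therefore overlapped SOX9-Halo_budding and both spheroids, while all SOX9-mEGFP_budding libraries lay above it.

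**Figure D4:**
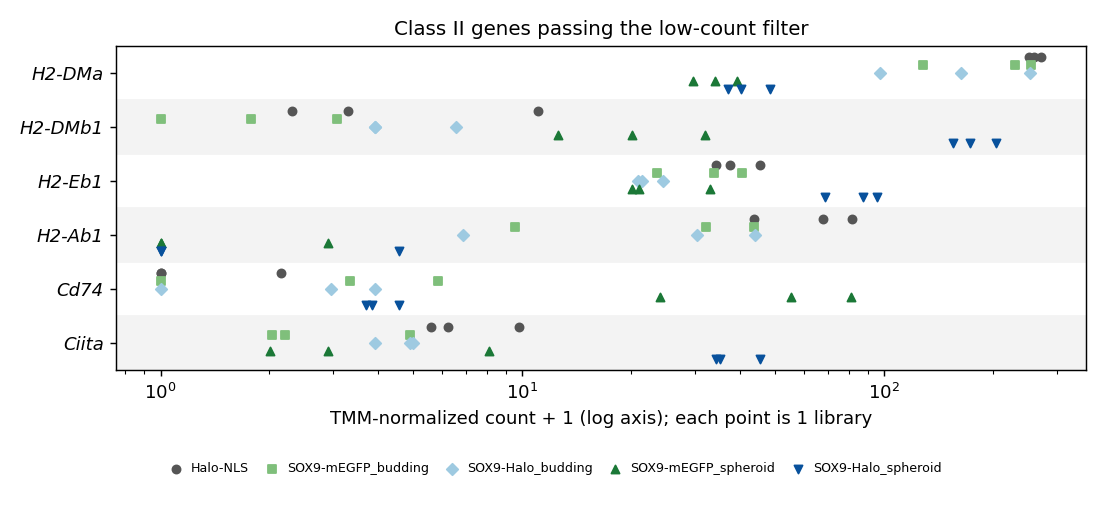
TMM-normalized counts plus 1 (log axis) of the 6 class II genes that passed the low-count filter, with 1 point for each library and a colour and marker for each condition. H2-DMb1, H2-Eb1 and Ciita lie highest in SOX9-Halo_spheroid, Cd74 in SOX9-mEGFP_spheroid, and H2-DMa and H2-Ab1 are low in both spheroids.

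Of the 6 tested class II genes, 3 rose and 2 fell from budding to spheroid in the SOX9-Halo line, and 2 rose and 2 fell in the SOX9-mEGFP line. Among all tested genes, 10.5% rose and 14.7% fell in the SOX9-Halo line, and 8.55% and 7.88% in the SOX9-mEGFP line. Their highest normalized count was 270.8, for H2-DMa in Halo-NLS. Normalized counts of H2-DMa were 259, 271 and 250.1 in Halo-NLS, 253, 228 and 127 in SOX9-mEGFP_budding, 162, 251 and 96.6 in SOX9-Halo_budding, 38.2, 33.0 and 28.6 in SOX9-mEGFP_spheroid and 39.1, 47.3 and 36.0 in SOX9-Halo_spheroid. H2-DMa, the alpha chain of the exchange factor, fell with a log2 change of -2.05 ± 0.35 (adjusted p = 0.0002) and -2.60 ± 0.35 (adjusted p = 5.55e-05) from budding to spheroid. The span of H2-DMa overlaps 5 annotated genes, Brd2 among them, and that of H2-DMb1 overlaps 2. Reads on more than 1 gene were not counted. Normalized counts of H2-DMb1 were 1.31, 2.29 and 10.1 in Halo-NLS, 0, 2.08 and 0.779 in SOX9-mEGFP_budding, 5.57, 2.92 and 2.93 in SOX9-Halo_budding, 11.5, 31.0 and 19.0 in SOX9-mEGFP_spheroid and 203, 154 and 171 in SOX9-Halo_spheroid. The beta chain gene H2-DMb1 rose instead, with a log2 change of 5.46 ± 0.56 (adjusted p = 1.57e-06) in the SOX9-Halo line, and in the SOX9-mEGFP line 20.6-fold (95% counting interval 6.75 to 103) above the 3 counts of the budding libraries. SOX9-Halo_spheroid was above SOX9-mEGFP_spheroid with a log2 change of 3.10 ± 0.47 (adjusted p = 0.000165). The rise in SOX9-mEGFP_spheroid against Halo-NLS, 2.14 ± 0.59 (adjusted p = 0.00808), was lost with a replicate block, with only the libraries compared, without Halo-NLS replicate 1 or 2, without SOX9-mEGFP_budding replicate 3, without SOX9-mEGFP_spheroid replicate 2 or 3 or without SOX9-Halo_spheroid replicate 1, 2 or 3 (log2 fold change 1.71 to 2.18, highest adjusted p 0.0445).

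Chains of the class II molecules themselves moved apart. Normalized counts of H2-Ab1 were 66.7, 80.3 and 42.7 in Halo-NLS, 42.5, 31.2 and 8.57 in SOX9-mEGFP_budding, 29.4, 42.8 and 5.85 in SOX9-Halo_budding, 0, 0 and 1.90 in SOX9-mEGFP_spheroid and 3.55, 0 and 0 in SOX9-Halo_spheroid. H2-Ab1, the beta chain of the I-A molecule, was 26.4-fold (95% counting interval 8.74 to 130.5) lower in SOX9-Halo_spheroid than in SOX9-Halo_budding and 39.3-fold (95% counting interval 10.5 to 330.4) lower in SOX9-mEGFP_spheroid than in SOX9-mEGFP_budding. In the SOX9-Halo line the call was lost without SOX9-Halo_budding replicate 2 or without SOX9-Halo_spheroid replicate 2 or 3 (log2 fold change -3.99 to -3.97, highest adjusted p 0.0167), and in the SOX9-mEGFP line without SOX9-mEGFP_budding replicate 1 or without SOX9-mEGFP_spheroid replicate 1 or 2 (log2 fold change -4.72 to -4.64, highest adjusted p 0.0155). Its partner H2-Aa had 1 count in all libraries together. Normalized counts of H2-Eb1 were 44.4, 33.3 and 36.5 in Halo-NLS, 32.8, 39.5 and 22.6 in SOX9-mEGFP_budding, 19.9, 20.4 and 23.4 in SOX9-Halo_budding, 31.9, 19.0 and 20 in SOX9-mEGFP_spheroid and 67.5, 86.1 and 94.5 in SOX9-Halo_spheroid. H2-Eb1, the beta chain of the I-E molecule, rose in SOX9-Halo_spheroid with a log2 change of 1.96 ± 0.30 (adjusted p = 7.91e-05) against SOX9-Halo_budding and with a log2 change of 1.12 ± 0.29 (adjusted p = 0.00513) against Halo-NLS, the latter lost with no low-count filter, with only the libraries compared, without Halo-NLS replicate 2 or 3 or without SOX9-Halo_spheroid replicate 2 or 3 (log2 fold change 0.99 to 1.19, highest adjusted p 0.0315). H2-Ea, which C57BL/6 mice carry with a promoter deletion, reached 6 counts at most, and H2-Eb1 overlaps H2-Aa in its span.

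Ciita and Cd74 were each high in a different spheroid line. Normalized counts of Ciita were 5.23, 4.59 and 8.80 in Halo-NLS, 1.21, 1.04 and 3.89 in SOX9-mEGFP_budding, 3.98, 2.92 and 3.90 in SOX9-Halo_budding, 7.10, 1.00 and 1.90 in SOX9-mEGFP_spheroid and 33.2, 44.5 and 34.2 in SOX9-Halo_spheroid. Ciita rose in SOX9-Halo_spheroid with a log2 change of 3.32 ± 0.53 (adjusted p = 0.000117) against SOX9-Halo_budding and 2.57 ± 0.51 (adjusted p = 0.000763) against Halo-NLS. Both calls were lost without any 1 of the SOX9-Halo_spheroid libraries, where adjusted p stayed at or below 0.0054 over all alternatives and the mean normalized count dropped below 10. Ciita overlaps the gene Dexi. Normalized counts of Cd74 were 0, 1.15 and 0 in Halo-NLS, 4.86, 0 and 2.34 in SOX9-mEGFP_budding, 0, 2.92 and 1.95 in SOX9-Halo_budding, 23.1, 54.1 and 80.0 in SOX9-mEGFP_spheroid and 3.55, 2.84 and 2.70 in SOX9-Halo_spheroid. Cd74 rose in SOX9-mEGFP_spheroid, 22.7-fold (95% counting interval 10.8 to 57.2) above SOX9-mEGFP_budding and 126-fold (95% counting interval 22.2 to 4991) above Halo-NLS, and was at 9 counts in SOX9-Halo_spheroid. The call against SOX9-mEGFP_budding was lost without SOX9-mEGFP_spheroid replicate 2 or 3 (log2 fold change 3.96 to 4.38, highest adjusted p 0.00313), and that against Halo-NLS without SOX9-mEGFP_spheroid replicate 2 or 3 (log2 fold change 6.16 to 6.58, highest adjusted p 0.000563), the mean normalized count being then under 10 in both.

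Antigen-presenting cells express several of these genes, so their markers were examined. Of 15 leukocyte genes 1, Itgax, had no count in any library and 3 had at most 3 counts in a library. Their summed normalized count was 78.03 to 240.1 in Halo-NLS, 110.1 to 162.8 in SOX9-mEGFP_budding, 63.25 to 95.47 in SOX9-Halo_budding, 105.1 to 198.1 in SOX9-mEGFP_spheroid and 12.30 to 18.91 in SOX9-Halo_spheroid. H2-Ab1 and H2-DMa were low in both spheroids, where this sum was lowest in the one and within the range of Halo-NLS in the other. In the latter, SOX9-mEGFP_spheroid, Csf1r made up most of the sum. Itgam (6.667 to 26.62) and Laptm5 (0 to 7.987) were lower there than in SOX9-mEGFP_budding (79.96 to 121.5 and 8.504 to 23.36). The part of these genes in the H2-Ab1 and H2-DMa levels was not tested. Csf1r was at 68.3 to 179.1 in SOX9-mEGFP_spheroid, where Cd74 was highest, and at 0.779 to 32.7 elsewhere, and its part in the Cd74 level was not tested. The pan-leukocyte gene Ptprc was at 0.952 to 5.01 in SOX9-mEGFP_spheroid and at 0 to 1.215 in SOX9-mEGFP_budding. It was at 0 in SOX9-Halo_spheroid, where H2-DMb1, H2-Eb1 and Ciita were highest. Spi1, of the same list, was at 3.601 to 7.107 in SOX9-Halo_spheroid and at 0 to 3.902 elsewhere. The part of Ptprc and Spi1 in the levels of these class II genes was not tested. Summed fibroblast markers (5 genes) were at 17.03 to 48.6 in SOX9-Halo_spheroid, at 8.88 to 15.2 in SOX9-mEGFP_spheroid, at 6.81 to 15.6 in the budding organoids and at 6.54 to 50.3 in Halo-NLS. Summed endothelial markers (3 genes) were at 24.8 to 33.9 in Halo-NLS, at 8.504 to 24.3 in the budding organoids and at 0 to 5.01 in the spheroids, and their part in the lower levels of members in the spheroids was not tested.

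**Figure D5:**
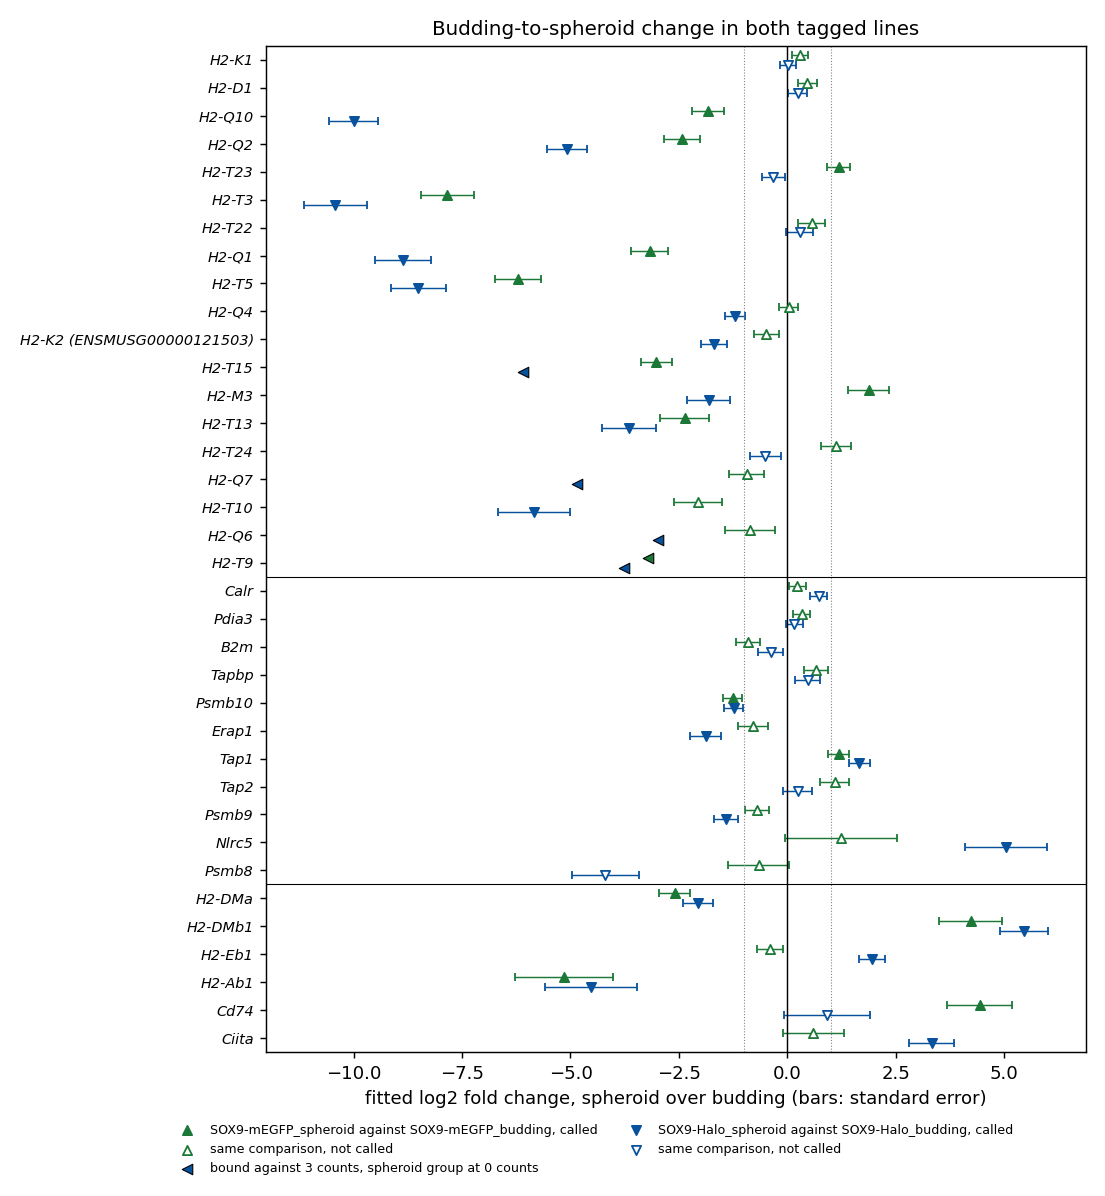
Fitted log2 fold changes from budding to spheroid (x axis, bars SE) of the 36 tested members in both SOX9 lines, filled where called, with left-pointing triangles at the bound for members without a count in the spheroids. H2-Q10, H2-Q1 and H2-T3 lie further left in the SOX9-Halo line, and H2-K1, H2-D1 and B2m lie within 1 unit of 0 in both.

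The difference between the lines was tested directly, as the budding-to-spheroid change of the SOX9-Halo line minus that of the SOX9-mEGFP line. Of the 36 members 1 was called higher and 6 lower, where 1.81% and 5.58% of all genes were. The members called lower were H2-Q10 (-8.17 ± 0.65, adjusted p = 1.01e-06), H2-Q1 (-5.69 ± 0.77, adjusted p = 0.000122), H2-Q2 (-2.65 ± 0.57, adjusted p = 0.00532), H2-M3 (-3.69 ± 0.68, adjusted p = 0.00179), H2-Q7 and H2-T15. H2-Q7 and H2-T15 had adjusted p = 0.000727 and adjusted p = 0.0008, but no counts in SOX9-Halo_spheroid, so that their fitted differences are no bound. H2-Eb1 was the member called higher, with 2.36 ± 0.42 (adjusted p = 0.00143). For H2-T3 and H2-T5, near 0 in the spheroids of both lines, the difference was not called (-2.58 ± 0.96, adjusted p = 0.1 and -2.29 ± 0.86, adjusted p = 0.105). The call of H2-Q2 was lost with only the libraries compared, without SOX9-mEGFP_budding replicate 2, without SOX9-Halo_budding replicate 1, without SOX9-mEGFP_spheroid replicate 1 or 2 or without SOX9-Halo_spheroid replicate 2 or 3 (log2 fold change -2.79 to -2.38, highest adjusted p 0.0196). Without SOX9-Halo_budding replicate 1, 1 member was called higher and 5 lower. Set side by side, SOX9-Halo_spheroid had 5 members higher and 8 lower than SOX9-mEGFP_spheroid, beside 3.59% and 9.58% of all genes.

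Between the budding organoids and the control few genes were called, among the members as among all tested genes. In SOX9-Halo_budding 1 member, H2-T24, was called against Halo-NLS, beside 3.75% of all genes in either direction, and in SOX9-mEGFP_budding also 1, again H2-T24, beside 2.76%. No member was called between SOX9-Halo_budding and SOX9-mEGFP_budding (edgeR; 0.456% of all genes), where 4 members had an unadjusted p under 0.05 and DESeq2 called 0. With library sizes alone the same numbers of members were called, while all genes split into 1068 higher and 109 lower in SOX9-Halo_budding, against 438 and 221 with TMM, and into 620 and 108 in SOX9-mEGFP_budding, against 350 and 134. H2-K1 was lower than in Halo-NLS with a log2 change of -0.88 ± 0.19 (adjusted p = 0.00827) in SOX9-Halo_budding and -0.87 ± 0.19 (adjusted p = 0.0102) in SOX9-mEGFP_budding, under the 2-fold limit. H2-Q10 was -1.08 ± 0.35 (adjusted p = 0.0474) and -0.80 ± 0.35 (adjusted p = 0.124) and did not pass.

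Genes around the pathway were described by 3 lists. Of 24 interferon and MHC regulators, 1 rose and 3 fell from budding to spheroid in the SOX9-Halo line, and 1 rose and 1 fell in the SOX9-mEGFP line. Of all genes, 10.5% rose and 14.7% fell in the SOX9-Halo line, and 8.55% and 7.88% in the SOX9-mEGFP line. The most abundant called were the interferon gamma receptor chains Ifngr2 (7312, 8259 and 4631 in SOX9-Halo_budding, 2953, 2178 and 1942 in SOX9-Halo_spheroid, -1.51 ± 0.31, adjusted p = 0.000927) and Ifngr1 (-1.98 ± 0.36, adjusted p = 0.000371) and the transcription factor Irf8 (-3.93 ± 0.30, adjusted p = 1.08e-07). In the SOX9-mEGFP line Irf8 fell with a log2 change of -1.72 ± 0.28 (adjusted p = 0.000244) and Irf9, a component of the interferon-stimulated gene factor, rose with a log2 change of 1.48 ± 0.23 (adjusted p = 0.000174). Irf9 was higher in the spheroids of the SOX9-Halo line as well, at 1360, 1127.5 and 1217 against 601, 696 and 489 in SOX9-Halo_budding. Of 35 other antigen processing genes, 4 rose and 2 fell in the SOX9-Halo line, and 4 rose and 3 fell in the SOX9-mEGFP line, beside the same shares of all genes. The lysosomal proteases Ctsd and Ctsh rose in both lines, Ctsd with a log2 change of 2.23 ± 0.20 (adjusted p = 4.48e-07) and 1.31 ± 0.20 (adjusted p = 0.000123), Ctsh with a log2 change of 3.40 ± 0.26 (adjusted p = 8.29e-08) and 3.05 ± 0.25 (adjusted p = 6.04e-07), and the thiol reductase Ifi30 fell, with a log2 change of -1.17 ± 0.29 (adjusted p = 0.00456) and -1.46 ± 0.29 (adjusted p = 0.00147). The medians of these 2 lists in the SOX9-Halo line were -0.16 and 0.05, beside -0.08 over all genes.

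The third list held MHC-like molecules outside the H2 names and ligands of T and natural killer cells, 18 of 24 genes being tested. In the SOX9-Halo line 6 rose and 7 fell, with a median of -1.42, beside 10.5% and 14.7% of all genes and their median of -0.08. In the SOX9-mEGFP line 4 rose and 5 fell, with a median of -0.37, beside 8.55% and 7.88% of all genes and their median of -0.04. Btnl1, a butyrophilin-like molecule that supports intestinal gamma delta T cells, was at 3248, 3575 and 2347 in SOX9-Halo_budding and at 2.37, 0.946 and 4.501 in SOX9-Halo_spheroid. In the SOX9-mEGFP line it was at 3766, 3258 and 1335 while budding and 122, 54.1 and 20 as spheroids, a fall of -5.40 ± 0.57 (adjusted p = 5.53e-06). Lgals9, a secreted lectin with ligands on T cells, fell in the SOX9-Halo line with a log2 change of -2.01 ± 0.23 (adjusted p = 4.48e-06). Genes of this list were named by abundance, and none of those that rose is named.

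The remaining 23 members could not be tested. H2-Q5 reached 12 counts in a library and 67 in all, H2-DMb2 and H2-Ea reached 6, and the other 20 had at most 2 counts in any library. These were the M cluster chains other than H2-M3, H2-Q3, H2-T7, the pseudogene entry of H2-K2 and the class II genes H2-Aa, H2-Eb2, H2-Oa, H2-Ob, H2-Pa and H2-Pb.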

How the data were processed

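Poly-A RNA libraries (NEBNext Ultra II, paired reads) were made from 15 organoid samples. The authors trimmed reads with cutadapt 4.5, aligned them uniquely with STAR to mm39 (GRCm39) and counted them per Ensembl gene with HTSeq 2.0.2 without regard to strand, so the deposited values are raw counts. Reads on no gene (1.83% to 6.09%) and on more than 1 gene (9.65% to 13.6%) were left out. The authors' normalized counts and DESeq2 comparison tables (fold changes and p-values) were not used here.

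All 15 libraries were fitted together in edgeR 4.0.16 (TMM, filterByExpr, 17560 genes, common biological coefficient of variation 0.302), tested on simulated data in which 96% to 100% of genes changed by 2 or 3 on the log2 scale were recovered in SOX9-Halo_spheroid against Halo-NLS (15460 genes). Contrasts were tested with Benjamini-Hochberg adjustment over all genes. The members and lists were chosen with earlier results of these data known. Members passing the filter are named, with values by library where called or listed by name, and at most 3 called genes per other list. Alternatives were RLE scaling, library sizes alone, no low-count filter, DESeq2 1.42.0, only the libraries compared, adjusted p at most 0.05 without a limit on fold or mean count, a replicate block and each library left out. Same-numbered libraries of SOX9-Halo_budding and SOX9-Halo_spheroid deviated together (r 0.234 to 0.403, mean -0.17 for other numbers, across 11054 genes), and no other pair of conditions had all 3 correlations over 0.1. Single correlations were higher elsewhere. They spanned -0.055 to 0.817 between Halo-NLS and SOX9-Halo_budding and 0.04 to 0.74 between both budding conditions, with 2 over 0.1 in each. The main fit did not model this. RefSeq promoters are of GRCm38.p6.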

Additional observations from a re-analysis of the deposited data

Results flagged for a closer look

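For 7 members the budding-to-spheroid change differed between the SOX9-Halo and the SOX9-mEGFP line in edgeR's test of the difference itself, given as the log2 change of the SOX9-Halo line minus that of the SOX9-mEGFP line. The difference was -8.17 ± 0.65 (SE) for H2-Q10, -5.69 ± 0.77 for H2-Q1, -3.69 ± 0.68 for H2-M3, -2.65 ± 0.57 for H2-Q2 and 2.36 ± 0.42 for H2-Eb1. For H2-Q7 and H2-T15 the fitted difference was -6.91 and -6.05, with 0 counts in SOX9-Halo_spheroid, so the size depends on the fit and is no bound. H2-M3 rose in the SOX9-mEGFP line and fell in the SOX9-Halo line.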

How the results depend on the processing

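Of 96 called results of single members, 65 kept their call under every alternative run, 31 lost it under at least 1 and 0 changed sign. The numbers of members called in the spheroid comparisons stayed within 1.5 times of the values reported, except at an adjusted p of at most 0.05 with no limit on fold or mean count, which gave 20 in place of 13 between the spheroids and 13 in place of 7 for the difference between the lines. In the budding organoids, where 1 member was called, SOX9-Halo_budding against Halo-NLS had 3 with no low-count filter, 6 at an adjusted p of at most 0.05 without these limits (Psmb8, mean 9.21, among them), 2 with a replicate block and 0 with only the libraries compared. SOX9-mEGFP_budding against Halo-NLS had 2, 4, 1 and 0 under the same settings. Leaving out single libraries gave 17 to 22 members for SOX9-Halo_spheroid against Halo-NLS, 11 to 16 for SOX9-mEGFP_spheroid against Halo-NLS, 0 to 2 for each budding condition against Halo-NLS, 18 to 22 and 11 to 16 from budding to spheroid in the SOX9-Halo and SOX9-mEGFP line, 9 to 14 between the spheroids, 6 to 8 for the difference between the lines and 0 between the budding conditions. With a replicate block within the SOX9-Halo line, chosen after seeing the data, 22 members were called from budding to spheroid, as without it, 21 of them shared. The replicate block over all libraries moved no spheroid count beyond 1.5 times. For Ciita and Cd74, and for Nlrc5 against Halo-NLS and SOX9-Halo_budding, the calls lost without a library ended because the mean normalized count fell under 10. For Pdia3 the lost calls had log2 fold changes of 0.89 to 0.99, under the 2-fold limit. H2-Q7 between the spheroids lost its call with only the libraries compared. It kept a log2 fold change of -7.31 (adjusted p = 0.000305 in edgeR), so only the limit on the mean count was left. H2-T10 in SOX9-Halo_spheroid against Halo-NLS lost its call at a log2 fold change of -3.52. Its adjusted p in edgeR was then 0.0119, over the limit of 0.01. For the other lost calls the limits were not told apart.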

Other observations

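The H2-T11-ps row, left out as a pseudogene name, was at 88.6 ± 17.03 (SD, n = 3) in Halo-NLS, 61.2 ± 18.9 in SOX9-mEGFP_budding, 48.5 ± 25.8 in SOX9-Halo_budding, 89.6 ± 24.1 in SOX9-mEGFP_spheroid and 1.71 ± 0.716 in SOX9-Halo_spheroid, with 5 counts in the last. It overlaps the span of H2-T9, which had no count in either spheroid.

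Between the first and the last H2 member on chromosome 17 (chr17:34193607-37794472, GRCm39) lay 124 other tested genes. From budding to spheroid 14 rose and 23 fell in the SOX9-Halo line (11.3% and 18.5%, beside 10.5% and 14.7% of all genes), and 17 rose and 7 fell in the SOX9-mEGFP line (13.7% and 5.65%, beside 8.55% and 7.88%). In the difference between the lines 19 were called lower (15.3%), beside 5.58% of all genes called lower. These genes are neighbours and not independent of each other.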
